A study of Mus musculus with 12 samples.

Results

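The expression of 8 genes of cholesterol synthesis was followed in inguinal white adipose tissue (iWAT), the subcutaneous fat depot of the groin, by RNA-seq. They are Srebf2, Hmgcs1, Sqle, Lss, Cyp51, Idi1, Fdft1 and Insig1, chosen by name from the table of raw reads per gene. All 8 of them, of 54134 genes listed, had a single gene identifier and were among the 15585 genes that passed the filter on low counts. The mice were male C57BL/6J mice that received adeno-associated virus through the tail vein at 8 weeks of age. In 6 mice the virus carried GFP (AAV-GFP, the control) and in 6 mice it carried mouse Notum (AAV-Notum), a secreted enzyme that inactivates Wnt ligands. Both viruses used the human thyroxine binding globulin promoter, which is active in liver. The product was thus meant to be made outside the adipose tissue. All 12 mice were fed chow for 4 weeks after the injection and were fasted for 4 h before the tissue was taken. The comparison asks how the genes that make cholesterol differed in iWAT when the liver overexpressed Notum.

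Cells make cholesterol from acetyl-CoA through the mevalonate pathway and then through squalene and lanosterol. Srebf2 encodes SREBP2, the transcription factor that switches this pathway on when membrane sterols are low. Its precursor is held in the endoplasmic reticulum by SCAP together with INSIG1 or INSIG2, and it is cut by proteases in the Golgi once sterols fall. Insig1 is itself a target of SREBP, so its transcript is a classical readout of the pathway as well as its brake. Of the 6 enzymes, Hmgcs1 makes HMG-CoA, Idi1 isomerises the isoprene unit, Fdft1 joins farnesyl units to squalene, Sqle and Lss turn squalene into lanosterol, and Cyp51 removes the first methyl group of lanosterol. Adipocytes store much of the body's free cholesterol, but most of it is taken up from lipoproteins.

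The promoters of the genes share short motifs. RefSeq (GRCm38.p6) held a promoter of 300 bases, 250 before and 50 after the start of transcription, for 6 of the 8 genes, that is all except Sqle and Fdft1. They were searched on both strands for the sterol regulatory element TCACNCCAC, the NF-Y box CCAAT, the Sp1 box GGGCGG and the E-box CACGTG, and no match of one motif overlapped a match of another in these 6 promoters. NF-Y and Sp1 are the general factors with which SREBP is known to act. The NF-Y box was present in 6 of 6 promoters, against 37.41% of the 32851 promoters searched, and the Sp1 box in 6 of 6, against 35.66%. The sterol regulatory element in this spelling was found in Hmgcs1 only (1.24% of all promoters) and the E-box in Insig1 only (7.15% of all promoters). Among the 13 other enzymes of the pathway listed further on, 12 had a promoter in the table, of which 11 held the NF-Y box, 11 the Sp1 box, 3 the E-box and 0 the sterol regulatory element. These are matches of letters and not measured binding sites. The windows of 30 bases below run 5′ to 3′ on the strand of the gene, and the capitals mark the sterol regulatory element of Hmgcs1 in the first line and the NF-Y box, as CCAAT or its reverse ATTGG, in the others. They are shown because the NF-Y box is, like the Sp1 box, present in all 6 promoters.
Hmgcs1, chr13:119690204-119690233, plus strand: cgtcaccgtcTCACCCCACttcccaggtcc
Hmgcs1, chr13:119690163-119690192, plus strand: cgccgtcccgccATTGGcaggcttgttctc
Srebf2, chr15:82147122-82147151, plus strand: cttcgcgcgccgATTGGctaatgcaagcct
Insig1, chr5:28071184-28071213, plus strand: cgccctcctcccATTGGctccggcggcctc
Idi1, chr13:8885576-8885605, plus strand: catggtccaaggtgccATTGGctggcgacc
Lss, chr10:76531531-76531560, plus strand: ggtgatgctctgATTGGccgagctcgcatc
Cyp51, chr5:4104709-4104738, minus strand: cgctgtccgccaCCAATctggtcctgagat

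The libraries held from 14711113 to 21618860 counts. RNA integrity numbers ran from 5.7 to 7.6 in AAV-GFP mice and from 6.9 to 7.4 in AAV-Notum mice, and the RNA of AAV-GFP mouse S_2012 was isolated on a later day than that of the other 11 mice. Notum itself had 1 to 17 reads in the iWAT of AAV-GFP mice and 8 to 560 reads in that of AAV-Notum mice, where mice S_2032 and S_2041 held 560 and 433 reads. The Notum transgene was directed to the liver, so this gene in iWAT does not check the labels. The 10 adipocyte markers, which include Adipoq, Plin1 and Fabp4, summed to between 33990 and 77350 CPM (counts relative to library size, normalized with TMM) in every mouse, so the markers of the labelled tissue were present throughout. Markers of other cells differed widely between mice. The 15 lymphoid markers summed to 10.9 to 1952 CPM in AAV-GFP mice and 621.7 to 2694 CPM in AAV-Notum mice, with AAV-GFP mice S_2011 and S_2014 lowest. The 12 hepatocyte markers summed to 48.9 to 6061 CPM in AAV-GFP mice, highest in mice S_2013 and S_2014, and to 24.6 to 876.9 CPM in AAV-Notum mice. Among AAV-Notum mice, the mean log2 CPM of these markers was highest in S_2041 (4.96) and next highest in S_2032 (2.71). These are the mice with the most Notum reads, and the source of those reads was not tested. The 8 brown or beige adipocyte markers summed to 69.0 to 174.9 CPM and to 86.6 to 392.8 CPM, and the 8 skeletal muscle markers reached 3591 CPM in 1 AAV-Notum mouse. Relations of the 8 genes to the RNA integrity number and to the adipocyte, lymphoid and brown or beige markers are given further on. The part that any of these markers, or RNA quality, played in the group differences was not tested. Fewer cells of a type cannot be told apart from less RNA per cell in these samples.

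None of the 8 genes changed between AAV-Notum and AAV-GFP mice at an adjusted p under 0.05 in edgeR's quasi-likelihood test, with p-values adjusted by the Benjamini-Hochberg method over the 15585 genes. The same test called 0.0% of all genes tested higher and 0.0513% lower. At an unadjusted p under 0.05, 1 of the 8 genes (Insig1) was higher and 0 were lower, where 4.64% of all genes were higher and 9.54% were lower. DESeq2 called 0 of the 8 genes and 2.65% of all genes that it tested. In no gene of the 8 were the groups apart, whereas the AAV-Notum mice all exceeded the controls in 0.398% of all genes and all fell short of them in 0.693%. The log2 fold changes of the 8 genes ran from -0.25 (Sqle) to 0.58 (Insig1), with a median of -0.02 beside 0.01 over all genes tested.

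Srebf2 (ENSMUSG00000022463, chromosome 15 of GRCm38, 82147181 to 82205379) had a lowest, median and highest level of 52.8, 82.7 and 120.5 CPM in AAV-GFP mice and of 63.2, 110.9 and 144.1 CPM in AAV-Notum mice. Mice S_2031 and S_2032 of the AAV-Notum group lay above every AAV-GFP mouse, and 5 of the 6 exceeded the mean of the controls, but AAV-Notum mouse S_2042, at 63.2 CPM, lay among the low controls. The mean was 85.2 ± 29.9 CPM with AAV-GFP and 108.1 ± 29.1 CPM with AAV-Notum (SD, n = 6 each), for a log2 fold change of 0.34 (95% interval -0.20 to 0.88, edgeR adjusted p = 0.489). The exact permutation test, which was two-sided, gave p = 0.206, so a difference between the groups was not shown. The low controls S_2011 and S_2014 (57.9 and 52.8 CPM) were the mice with the fewest lymphoid transcripts, and without them the log2 fold change was 0.11. With the lymphoid marker score, the mean log2 CPM of the 15 markers, as a covariate it was -0.063.

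Insig1 (ENSMUSG00000045294, chromosome 5, 28071363 to 28078662) ranked first of the 8 genes by fold change when edgeR was fitted to all 12 mice. Its lowest, median and highest levels were 62.4, 89.7 and 102.3 CPM in AAV-GFP mice and 77.2, 116.5 and 204.6 CPM in AAV-Notum mice. AAV-Notum mice S_2033, S_2041 and S_2042, at 139.2, 184.6 and 204.6 CPM, stood above every control, while mice S_2031, S_2032 and S_2034, at 78.8, 77.2 and 93.8 CPM, lay inside the control range. The coefficient of variation was thus 16.5% in AAV-GFP mice and 42.7% in AAV-Notum mice. The mean was 86.5 ± 14.3 CPM with AAV-GFP and 129.7 ± 55.4 CPM with AAV-Notum (SD, n = 6 each), and edgeR put the difference at a log2 fold change of 0.58 (95% interval 0.04 to 1.13, edgeR unadjusted p = 0.0384, adjusted p = 0.328). By exact permutation p was 0.119. The log2 fold change was 0.59 without mice S_2011 and S_2014, 0.64 without mice S_2013 and S_2014, and 0.68 with the lymphoid marker score in the model. It was 0.46 without AAV-Notum mouse S_2041 (edgeR unadjusted p = 0.0961), 0.41 without AAV-Notum mouse S_2042 (edgeR unadjusted p = 0.106) and 0.50 in limma-voom (unadjusted p = 0.0636). Its unadjusted p was under 0.05 in 16 of 27 fits and over 0.05 when AAV-GFP mouse S_2011, S_2012, S_2013 or S_2021 or AAV-Notum mouse S_2033, S_2041 or S_2042 was left out, when either pair of controls was left out and with the RNA integrity number in the model.

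**Figure D1:**
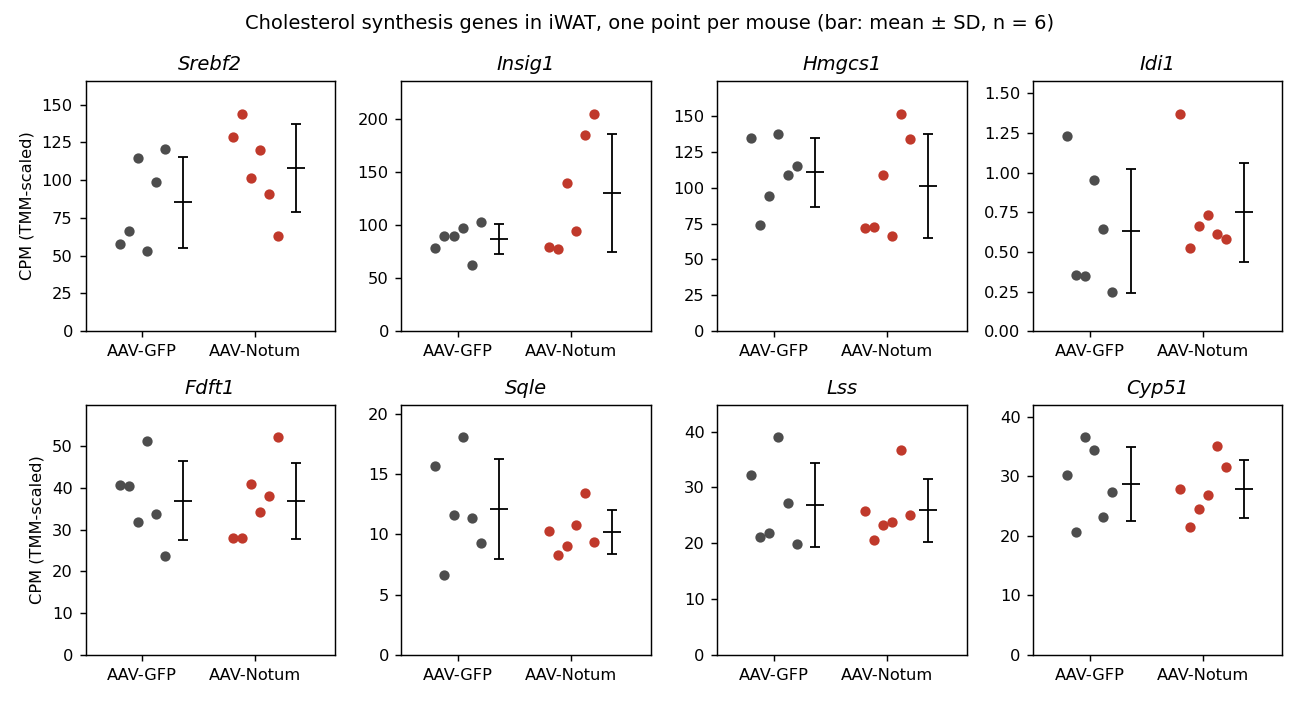
Levels of the 8 cholesterol synthesis genes in iWAT in CPM scaled to the TMM-normalized library size, with 1 point per mouse, AAV-GFP in grey and AAV-Notum in red, and the mean ± SD (n = 6) beside each group. The groups overlap in every panel, and 3 AAV-Notum mice stand above all controls for Insig1.

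Hmgcs1 (ENSMUSG00000093930, chromosome 13, 119690379 to 119708260), the entry enzyme of the mevalonate pathway, had a lowest, median and highest level of 74.0, 112.0 and 137.3 CPM in AAV-GFP mice and of 66.3, 90.6 and 151.5 CPM in AAV-Notum mice. The AAV-Notum mice were split, with 3 mice just below every control and mouse S_2041 above every control. Those 3 low mice, S_2031, S_2032 and S_2034, were the same mice in which Insig1 was inside the control range. The mean was 110.6 ± 24.1 CPM with AAV-GFP and 100.9 ± 36.2 CPM with AAV-Notum (SD, n = 6 each), with a log2 fold change of -0.13 (95% interval -0.63 to 0.37, edgeR adjusted p = 0.758). It was -0.29 without mouse S_2041 and -0.037 without mouse S_2034. The sign turned with the lymphoid marker score in the model (0.056) and without AAV-GFP mice S_2011 and S_2014 (0.040).

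Idi1 (ENSMUSG00000058258, chromosome 13, 8885501 to 8892451) was close to the limit of detection in this depot, with 4 to 27 reads per mouse. Its lowest, median and highest levels were 0.246, 0.502 and 1.23 CPM in AAV-GFP mice and 0.524, 0.639 and 1.37 CPM in AAV-Notum mice. The highest value of each group belonged to 1 or 2 mice, AAV-GFP S_2011 at 1.23 CPM, AAV-GFP S_2014 at 0.954 CPM and AAV-Notum S_2031 at 1.37 CPM. The log2 fold change was 0.25 (95% interval -0.63 to 1.12, edgeR adjusted p = 0.742), and without AAV-Notum mouse S_2031 it was -0.02. It was 0.87 without AAV-GFP mice S_2011 and S_2014 (edgeR unadjusted p = 0.0396, adjusted p = 0.671), 0.88 with the lymphoid marker score in the model (edgeR adjusted p = 0.551) and 0.64 with the RNA integrity number in the model (edgeR adjusted p = 0.648). Each of these 3 values exceeded that of Insig1 in the same fit. Of the 50-base stretches of Idi1 exons, 25.3% also occurred in other genes, so its reads could have been split by the counting.

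Fdft1 (ENSMUSG00000021273, chromosome 14, 63145150 to 63179578), squalene synthase, was at the same mean level in both groups, 36.9 ± 9.43 CPM with AAV-GFP and 36.9 ± 9.10 CPM with AAV-Notum (SD, n = 6 each). The lowest, median and highest levels were 23.6, 37.1 and 51.3 CPM against 28.0, 36.2 and 52.1 CPM, so that the ranges lay on top of each other. The log2 fold change was -0.0011 (95% interval -0.42 to 0.42, edgeR adjusted p = 0.999). The spread between mice, which was wide in both groups, is described with Srebf2 further on. Fdft1 shares 26.5% of its 50-base exon stretches with other gene models, chiefly those of its neighbour Ctsb, and whether the counting used strand is not given in the sources used here.

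Sqle (ENSMUSG00000022351, chromosome 15, 59315077 to 59331192), a rate-limiting oxygenase of the late pathway, was the lowest ranked of the 8 by fold change. Its lowest, median and highest levels were 6.67, 11.5 and 18.1 CPM in AAV-GFP mice and 8.33, 9.82 and 13.5 CPM in AAV-Notum mice. The AAV-GFP range enclosed the AAV-Notum range, since the controls held both the lowest mouse (S_2012) and the highest mouse (S_2014). The log2 fold change was -0.25 (95% interval -0.72 to 0.22, edgeR adjusted p = 0.545), and it was 0.06 without mice S_2011 and S_2014.

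Lss (ENSMUSG00000033105, chromosome 10, 76531588 to 76557138), which closes the sterol rings, ran from 19.9 to 39.0 CPM with a median of 24.5 CPM in AAV-GFP mice and from 20.5 to 36.8 CPM with a median of 24.5 CPM in AAV-Notum mice. AAV-GFP mice S_2011 and S_2014 (32.3 and 39.0 CPM) and AAV-Notum mouse S_2041 (36.8 CPM) were the high mice. The log2 fold change was -0.06 (95% interval -0.46 to 0.35, edgeR adjusted p = 0.885). Cyp51 (ENSMUSG00000001467, chromosome 5, 4081145 to 4104746) ran from 20.6 to 36.6 CPM with a median of 28.9 CPM in AAV-GFP mice and from 21.5 to 35.1 CPM with a median of 27.3 CPM in AAV-Notum mice, and its log2 fold change was -0.04 (95% interval -0.39 to 0.30, edgeR adjusted p = 0.890). For both enzymes the 95% interval of the ratio kept within 0.725 and 1.28, the narrowest limits among the 8 genes, so that differences beyond this size in either direction lay outside it. The log2 fold changes of Lss, Cyp51 and Fdft1 changed sign with the mice or covariates used.

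**Figure D2:**
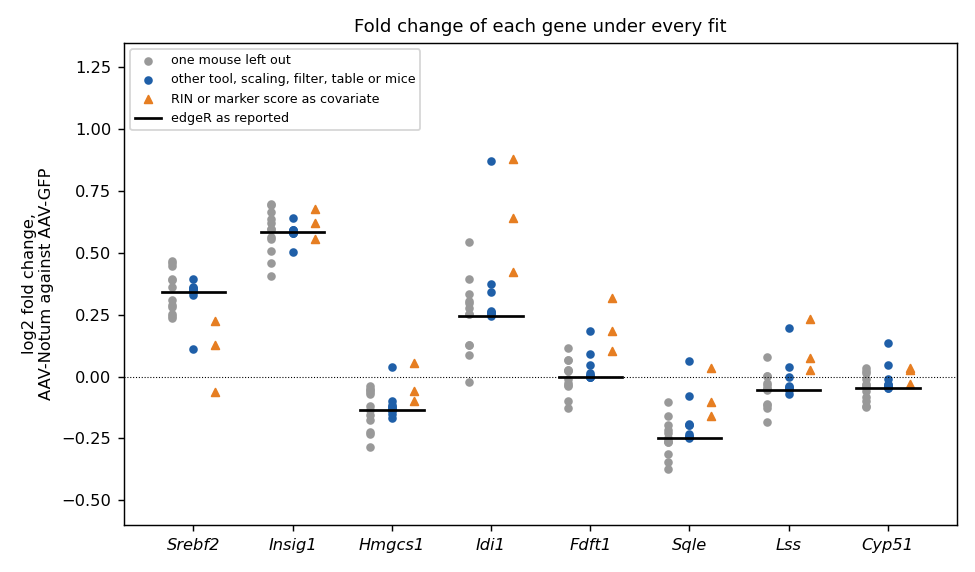
Log2 fold change (AAV-Notum against AAV-GFP, vertical axis) of each of the 8 genes, with the edgeR value as a black line, fits that leave out 1 mouse in grey, other tools, scalings, filters, tables or sets of mice in blue, and fits with RNA integrity or a marker score as covariate in orange. Insig1 stayed between 0.41 and 0.70 in every fit, while each of the other 7 genes fell on both sides of 0.

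The 13 other sterol enzymes had log2 fold changes from -0.39 (Hsd17b7) to 0.48 (Lbr). This was a wider range than that of the 6 enzymes that were followed, -0.25 (Sqle) to 0.25 (Idi1). Lbr was named after its value was seen (edgeR adjusted p = 0.465). Of the 19 enzymes of the pathway described here, all tested, 0 passed the adjusted threshold in edgeR or DESeq2, and 0 were lower and 0 higher at an unadjusted p under 0.05 in edgeR, beside 9.54% and 4.64% of all genes tested. Their median log2 fold change was -0.02, and it was -0.02 also for the 13 enzymes outside the 8 genes. Fdps and Dhcr7, which make farnesyl diphosphate and reduce 7-dehydrocholesterol, had log2 fold changes of 0.17 and -0.04. Mvd and Hsd17b7 had log2 fold changes of 0.30 and -0.39 with unadjusted edgeR p-values of 0.0820 and 0.0636. Mvk, the mevalonate kinase, had a log2 fold change of -0.37 (edgeR adjusted p = 0.449), which was 0.090 with the lymphoid marker score in the model.

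**Figure D3:**
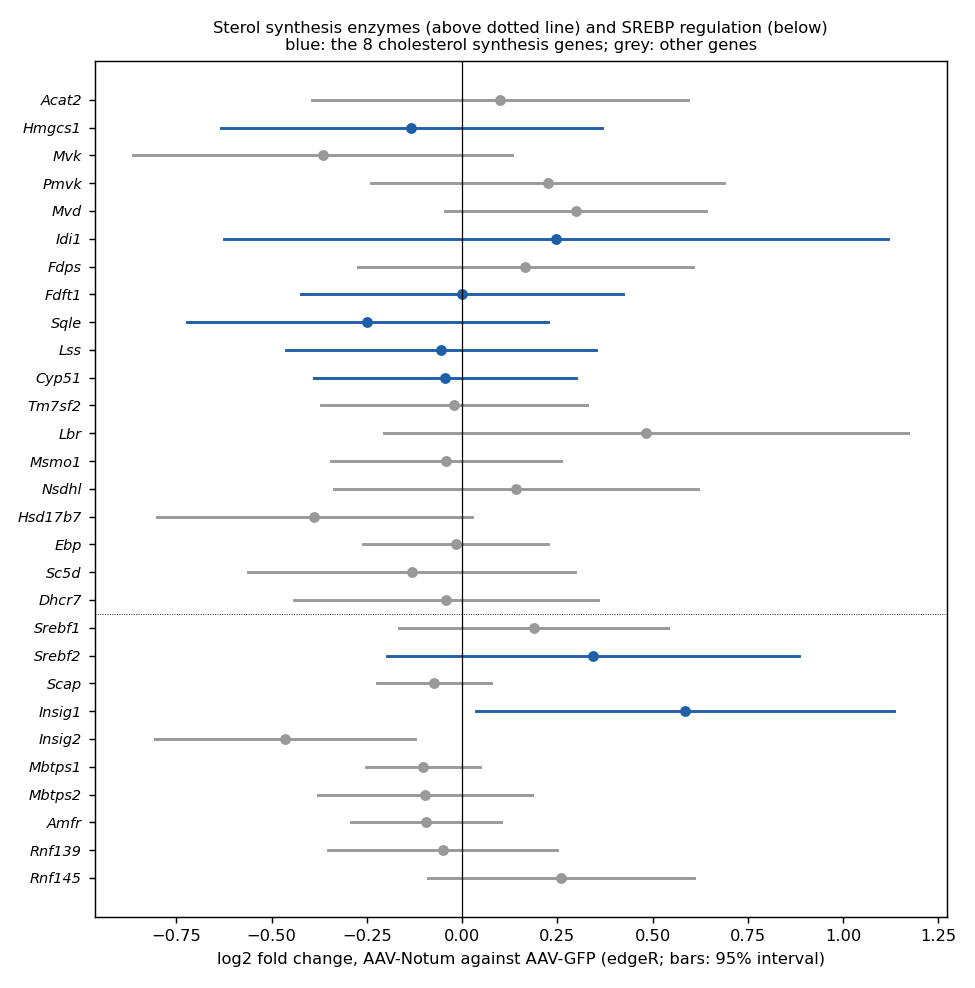
Log2 fold change (AAV-Notum against AAV-GFP) with its 95% interval from edgeR for 19 sterol synthesis enzymes in pathway order and, under the dotted line, for 10 genes of SREBP regulation, with the 8 genes followed here in blue. Of the genes drawn, only Insig1 and Insig2 have intervals that leave out 0, and neither passed after adjustment over all genes.

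Among the 10 genes that regulate SREBP, 0 passed the adjusted threshold in edgeR or DESeq2, 1 was higher (Insig1) and 1 was lower (Insig2) at an unadjusted p under 0.05, beside 4.64% higher and 9.54% lower of all genes tested. Insig2, the second anchor of the SCAP complex, which is not a classical SREBP target, pointed the other way from Insig1. Its levels were 54.9, 82.5 and 97.7 CPM (lowest, median, highest) in AAV-GFP mice and 49.3, 55.1 and 75.5 CPM in AAV-Notum mice, with 3 AAV-Notum mice below every control. The log2 fold change was -0.46 (95% interval -0.81 to -0.12, adjusted p = 0.230 from edgeR), and it was -0.31 without mice S_2011 and S_2014 and -0.19 with the lymphoid marker score in the model. Srebf1, the sister factor that favours fatty acid genes, had a log2 fold change of 0.19, Scap one of -0.07 and Rnf145, a ubiquitin ligase of the pathway, one of 0.26, with adjusted p-values of 0.542, 0.566 and 0.446 in edgeR. The difference between the changes of Insig1 and Insig2 was not tested.

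For sterol uptake and transport, all 10 genes described here were tested, 0 passed the adjusted threshold in edgeR and 1 in DESeq2, and 1 was lower at an unadjusted p under 0.05, beside 9.54% of all genes lower in edgeR and 2.65% past the adjusted threshold in DESeq2. That gene was Lrp1, a large endocytic receptor, at 1168 ± 283 CPM with AAV-GFP and 753 ± 164 CPM with AAV-Notum (SD, n = 6 each), with 4 AAV-Notum mice below every control (log2 fold change -0.63, edgeR adjusted p = 0.200, DESeq2 adjusted p = 0.0434). Its log2 fold change was -0.37 with the lymphoid marker score in the model (edgeR adjusted p = 0.569). Mylip, a ubiquitin ligase, and Gramd1b, a sterol carrier, had log2 fold changes of 0.21 and 0.34 (edgeR adjusted p = 0.402 and 0.398), and Stard4 one of -0.0037.

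Of the 10 genes of sterol efflux and the LXR pathway, which answers to high sterol, 0 passed the adjusted threshold in edgeR or in DESeq2 with its default filter, and edgeR gave 2 lower ones at an unadjusted p under 0.05, beside 9.54% of all genes tested. Pltp, a phospholipid transfer protein, was under the mean of the controls in 6 of 6 AAV-Notum mice (log2 fold change -0.47, edgeR adjusted p = 0.182, DESeq2 adjusted p = 0.0480 without its filter), and so was Cyp27a1, the sterol 27-hydroxylase (log2 fold change -0.39, edgeR adjusted p = 0.240). With the lymphoid marker score in the model Pltp was at -0.27 and Cyp27a1 at -0.17 (edgeR adjusted p = 0.557 and 0.704). The main efflux pumps Abca1 and Abcg1 had log2 fold changes of -0.09 and 0.20 (edgeR adjusted p = 0.703 and 0.667). That of Abcg1 was -0.22 with the lymphoid marker score in the model and -0.066 without AAV-GFP mice S_2011 and S_2014. Cyp7b1, an oxysterol hydroxylase abundant in liver, had a log2 fold change of -2.01, which was 0.41 without AAV-GFP mice S_2013 and S_2014, the mice with the most hepatocyte transcripts. Of the 5 genes of cholesterol ester storage, 0 passed either threshold in edgeR, and 0 passed in DESeq2, beside 4.64% higher and 9.54% lower of all genes at the unadjusted threshold in edgeR and 2.65% past the adjusted one in DESeq2. Nceh1, an ester hydrolase, Soat1, the esterifying enzyme, and Lipe, hormone-sensitive lipase and also one of the adipocyte markers, had log2 fold changes of 0.77, 0.53 and -0.27, which were 0.24, -0.079 and 0.062 with the lymphoid marker score in the model.

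In the isoprenoid branch, which draws on the same mevalonate, 1 of the 8 genes tested was higher and 1 lower at the unadjusted threshold, beside 4.64% higher and 9.54% lower of all genes tested, with 0 past the adjusted one in edgeR or DESeq2. Pdss1, which builds the tail of coenzyme Q, ran from 3.69 to 4.51 CPM in AAV-GFP mice and from 4.58 to 5.50 CPM in AAV-Notum mice, so that the groups did not overlap, as was so in this direction for 0.398% of all genes tested. Its log2 fold change was 0.30 (edgeR adjusted p = 0.242). The permutation test of Pdss1 gave p = 0.00217 in an exact test, which is the lower limit for groups of 6. Dhdds, of dolichol synthesis, was lower with a log2 fold change of -0.27 (edgeR adjusted p = 0.240), and Fntb, a farnesyltransferase subunit, had one of -0.14.

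The fatty acid synthesis genes, which SREBP1 governs more than SREBP2, had a higher median log2 fold change than the sterol enzymes. Of these 10 genes 7 had a log2 fold change above 0, beside 51.2% of all genes tested, and their median was 0.70. The unadjusted p was under 0.05 for 3 of them, all higher, beside 4.64% of all genes tested, and 0 passed the adjusted threshold in edgeR or DESeq2. Elovl6, Me1 and Acaca had log2 fold changes of 1.40, 1.04 and 0.72 with adjusted p-values of 0.254, 0.247 and 0.345 in edgeR, each with 5 of 6 AAV-Notum values over the mean of the controls. Acly, which supplies acetyl-CoA to both pathways, and Fasn had log2 fold changes of 1.11 and 0.80 (edgeR adjusted p = 0.362 and 0.406). The 3 genes below 0, named after their values were seen, were Scd1, the stearoyl-CoA desaturase, Mlxipl, a carbohydrate-responsive factor, and Pnpla3, a lipid droplet protein, with log2 fold changes of -0.53, -0.17 and -0.14. Scd1, whose level per kb of exon was the highest of the 10 in both groups, stood at 24880 ± 11220 CPM with AAV-GFP and 17210 ± 5858 CPM with AAV-Notum (SD, n = 6 each, edgeR adjusted p = 0.493). A median of 0.70 in this list beside -0.02 in the sterol enzymes is a description of the lists, with no test between them.

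Per length of exon, Insig1 transcripts were the most abundant of the 8 and Idi1 transcripts the least. In descending order over the 12 mice they were Insig1 (40.1 ± 16.6 CPM per kb, SD), Hmgcs1 (29.0 ± 8.17), Srebf2 (18.4 ± 5.83), Fdft1 (9.99 ± 2.39), Cyp51 (7.21 ± 1.36), Lss (5.37 ± 1.29), Sqle (4.05 ± 1.17) and Idi1 (0.223 ± 0.111). The mean ± SD ranges of neighbours in this order overlapped, except between Srebf2 and Fdft1 and between Sqle and Idi1. These levels were not corrected for 50-base stretches shared with other genes, which made up 25.3% of Idi1, 26.5% of Fdft1 and 11.6% of Hmgcs1.

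The mouse-to-mouse variation of the 8 genes had a structure that the group comparison does not show. With the group means subtracted, the 28 pairs of genes had Pearson correlations over 12 mice between -0.93 and 0.87, with a median of 0.33, and 20 of them were positive. Srebf2 was negatively related to all 7 other genes, and the only other negative pair was Insig1 with Idi1. After Benjamini-Hochberg adjustment over the 28 pairs, 2 pairs passed.

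The first pair was Srebf2 with Fdft1, with r = -0.929 (permutation p = 2e-05, adjusted p = 5.6e-04) and rho = -0.930 (permutation p = 4e-05, adjusted p = 0.00112). The relation held without the 2 mice farthest from the median of Srebf2 (r = -0.864), without AAV-GFP mice S_2011 and S_2014 (r = -0.917) and without AAV-GFP mouse S_2012 of the later RNA isolation (r = -0.927). Within the groups r was -0.914 in AAV-GFP mice and -0.952 in AAV-Notum mice. At the extremes, AAV-GFP mouse S_2014 had 52.8 CPM of Srebf2 and 51.3 CPM of Fdft1, and AAV-Notum mouse S_2032 had 144.1 and 28.1 CPM. The second pair, Sqle with Lss, consecutive enzymes, rose and fell together with r = 0.867 (permutation p = 5.4e-04, adjusted p = 0.00756) and rho = 0.860 (permutation p = 0.0017, adjusted p = 0.0238). For this pair r was 0.892 without the 2 mice farthest from the median of Sqle, 0.707 without AAV-GFP mice S_2011 and S_2014, 0.940 without AAV-GFP mouse S_2012, 0.867 within AAV-GFP mice and 0.932 within AAV-Notum mice.

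**Figure D4:**
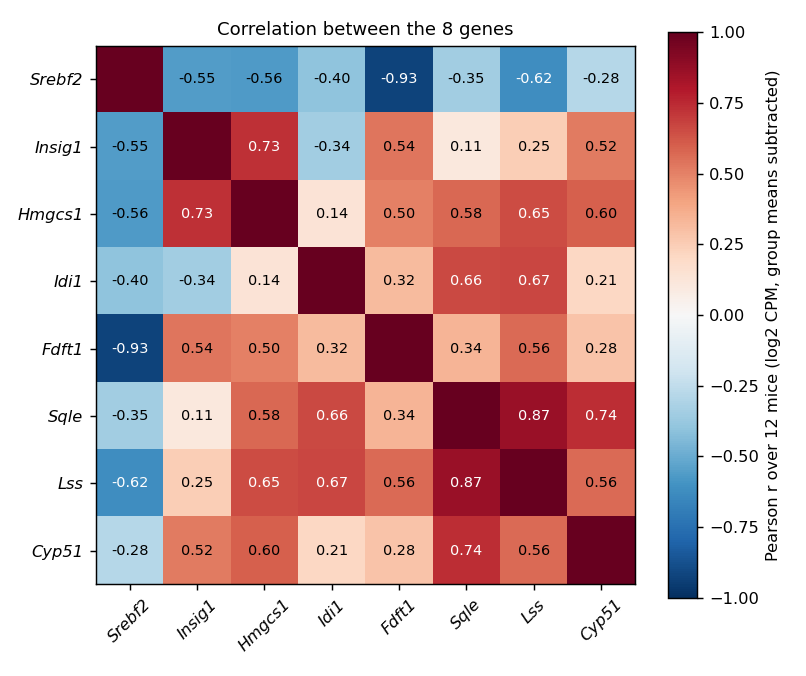
Pearson correlation over 12 mice of log2 CPM, with the group means subtracted, between each pair of the 8 genes, in colour from blue (-1) to red (1). The row of Srebf2 is blue throughout, with -0.93 for Fdft1, and the strongest positive pair is Sqle with Lss at 0.87.

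Levels of Srebf2 and Fdft1 also moved with the cell type markers, a comparison chosen after the values were seen. The adipocyte marker score, the mean log2 CPM of the 10 markers, was 11.2 ± 0.463 with AAV-GFP and 11.0 ± 0.393 with AAV-Notum (SD, n = 6 each, exact permutation p = 0.368). With group means subtracted, its correlation over 12 mice was r = -0.950 with Srebf2 (permutation p = 2e-05, adjusted p = 8e-05 over the 8 genes, rho = -0.979, permutation p = 6e-05) and r = 0.960 with Fdft1 (permutation p = 1e-05, the smallest that 100000 permutations can give, adjusted p = 8e-05, rho = 0.951, permutation p = 1e-05). Without the 2 mice farthest from the median score r was -0.934 and 0.970, and without AAV-GFP mice S_2011 and S_2014 it was -0.938 and 0.963. The other 6 genes did not pass, with r between 0.12 and 0.56. Srebf2 transcripts were thus higher, and those of Fdft1 lower, in mice whose samples held fewer adipocyte transcripts.

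The lymphoid marker score was 3.88 ± 3.31 with AAV-GFP and 6.54 ± 0.740 with AAV-Notum (SD, n = 6 each, exact permutation p = 0.0887). AAV-GFP mice S_2011 and S_2014, at 0.201 and -0.455, lay apart from the others, so that this relation was taken over the 10 mice left. There r was 0.921 for Srebf2 (permutation p = 0.0001, adjusted p = 0.0008 over the 8 genes, rho = 0.879, permutation p = 0.0001) and -0.820 for Fdft1 (permutation p = 0.00072, adjusted p = 0.00288, rho = -0.830, permutation p = 0.00415), and 0.852 and -0.751 without the 2 mice farthest from the median score. The scores of both cell types come from the same libraries as the genes, and shares of a library move against each other. With the adipocyte marker score as a covariate the log2 fold change was 0.13 for Srebf2 and 0.18 for Fdft1 (unadjusted p = 0.0200 and adjusted p = 0.176 for Fdft1 in edgeR). The brown or beige adipocyte marker score and the RNA integrity number gave 0 of 8 relations past the adjusted threshold each, with r between -0.311 and 0.671 for the former and between -0.634 and 0.452 for the latter. At unadjusted permutation p under 0.05, Cyp51 (r = 0.671, permutation p = 0.0283) and Insig1 (r = 0.623, permutation p = 0.0343) were related to the brown or beige score, both with an adjusted p of 0.137.

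**Figure D5:**
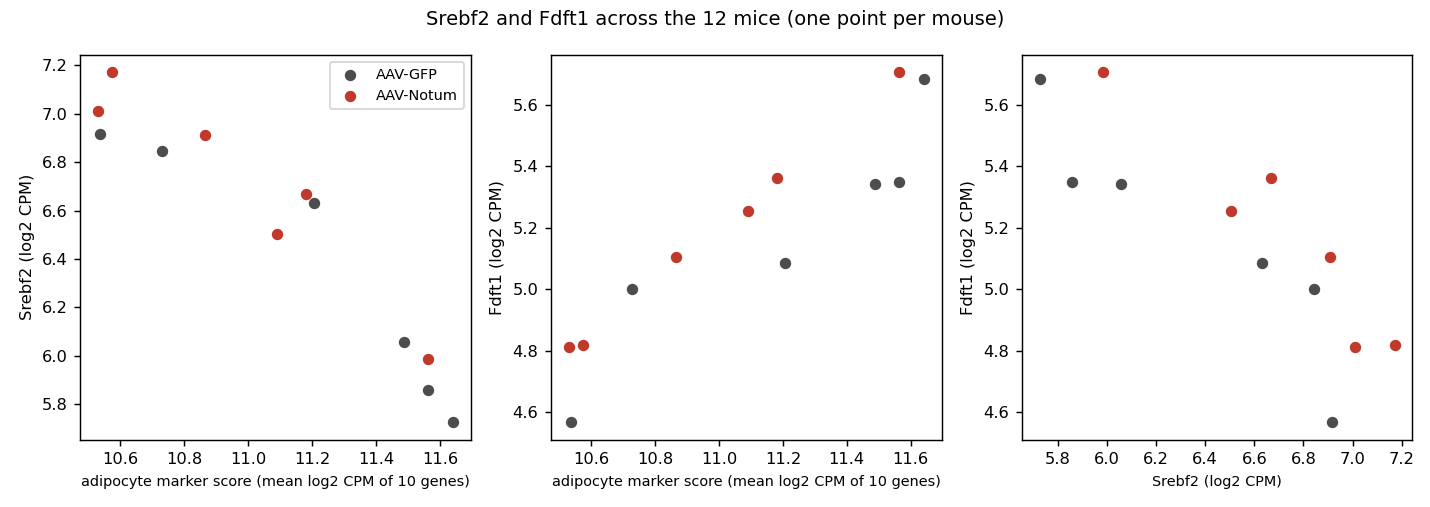
Log2 CPM of Srebf2 and of Fdft1 against the adipocyte marker score (mean log2 CPM of 10 genes), and of Fdft1 against Srebf2, with 1 point per mouse, AAV-GFP in grey and AAV-Notum in red. Srebf2 falls and Fdft1 rises along the adipocyte score in both groups. With that score as covariate the log2 fold change was 0.13 for Srebf2 (edgeR adjusted p = 0.426). It was 0.18 for Fdft1 (edgeR unadjusted p = 0.0200, adjusted p = 0.176), so AAV-Notum mice tended to lie above controls of similar score.

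Of the 11087 other genes with a mean of at least 100 counts, those whose variation was most like the mean of the 8 genes, each gene scaled and group means subtracted, were Mapkap1, Lactb2, Acaa2, Tmem79, Pm20d1, Vta1, Ola1, Asb7, Tsg101 and Lypla1. Their correlations with that mean over 12 mice ran from 0.923 for Mapkap1 and 0.913 for Lactb2 down to 0.849 for Lypla1, as a description without a test. None of them is an enzyme of sterol synthesis. The mean includes Srebf2, which was negatively related to every other gene of the 8, so it is not a pattern that all 8 shared.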

How the data were processed

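RNA-seq of iWAT from 12 mice was analysed. The authors sequenced single-end reads of 50 bases from TruSeq libraries and, per their processing notes, used FastQC, STAR 2.3.1, DESeq2 and the mm10 genome. The program and annotation behind the gene counts are not given in the sources used here. The deposited counts are raw reads per gene, and the second deposited table holds log2 values, the log2 of reads divided by a size factor plus 1, whose reads (100% whole within 0.01) served as an alternative.

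Counts were tested in R 4.3.3 with edgeR 4.0.16 (filterByExpr with minimum count 10 and minimum total 15, TMM, glmQLFit, two-sided glmQLFTest, threshold 0.05), with one mouse as one sample and no covariate. Log2 CPM carry a prior count of 2. Exact permutation tests used all 924 assignments, correlations 100000 permutations within groups (SciPy 1.17.1). Alternatives were DESeq2 1.42.0, limma-voom (limma 3.58.1), other scalings, filters and covariates, and mice left out. Leaving out AAV-GFP mice S_2013 and S_2014, leaving mice out of correlations, and the marker score relations were added after the values were seen. Total counts of 14711113 to 21618860 per mouse set the precision, so that Idi1, with 4 to 27 reads, is the least certain. Levels per kb use the exons of protein-coding transcripts of GENCODE vM21, which also gave the positions. The fits were tested on simulated data. Figures were drawn with matplotlib 3.10.9.

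The 8 genes, the pathway lists and the cell type marker lists were chosen with earlier results of these data known. Outside the 8 genes, the text names Notum, 11 sterol or fatty acid genes fixed by name, in each list the 3 genes of smallest p, and the 10 genes most like the 8. Lbr, Scd1, Mlxipl and Pnpla3 fall outside this rule and were named after their values were seen. Some genes of these lists are not reported here, and the lists are given without them.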

Additional observations from a re-analysis of the deposited data

Results flagged for a closer look

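Each of the 8 genes was examined in each group of 6 mice for a mouse far from the others, by the gap to the nearest mouse as a share of the range (beyond the critical value of Dixon's test), in 16 groups in all. Chance gives such a result in about 1 of 20 groups. In AAV-Notum mouse S_2041, Lss was at 36.8 CPM while the other 5 mice lay between 20.5 and 25.8 CPM, a gap of 0.678 of the range. The same mouse had the highest Hmgcs1, Sqle and Cyp51 levels of its group. Its hepatocyte and brown or beige marker scores (4.96 and 4.62, mean log2 CPM) were also the highest of its group. A link between these was not tested. In AAV-Notum mouse S_2031, Idi1 was at 1.37 CPM while the others lay between 0.524 and 0.736 CPM, a gap of 0.750 of the range. Without mouse S_2041 the log2 fold change of Lss was -0.18, and without mouse S_2031 that of Idi1 was -0.02.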

How the results depend on the processing

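In each of 26 alternative fits, 0 of the 8 genes and 0 of the 19 sterol enzymes passed the adjusted threshold, and Insig1 kept its direction. The median correlation between pairs was 0.33 under DESeq2 size factors, 0.32 without subtracting group means and 0.188 to 0.435 with one mouse left out. That with RNA integrity was -0.46 to -0.17 with one mouse left out. Signs of these log2 fold changes turned as follows, and the cause was not tested. With the lymphoid marker score as covariate the values were -0.063 (Srebf2), 0.056 (Hmgcs1), 0.033 (Sqle), 0.23 (Lss), 0.033 (Cyp51), 0.32 (Fdft1), 0.090 (Mvk), 0.058 (Dhcr7), -0.22 (Abcg1), -0.079 (Soat1) and 0.062 (Lipe). Without AAV-GFP mice S_2011 and S_2014 they were 0.0095 (Mvk), 0.040 (Hmgcs1), 0.063 (Sqle), 0.20 (Lss), 0.048 (Cyp51), 0.18 (Fdft1), 0.13 (Dhcr7) and -0.066 (Abcg1). Without AAV-GFP mice S_2013 and S_2014 they were 0.039 (Lss), 0.13 (Cyp51), 0.091 (Fdft1), 0.090 (Dhcr7), 0.080 (Stard4) and 0.41 (Cyp7b1). With the RNA integrity number as covariate they were 0.028 (Lss), 0.025 (Cyp51), 0.10 (Fdft1) and 0.0076 (Dhcr7), and with the adipocyte marker score 0.077 (Lss) and 0.18 (Fdft1). Fdft1 gave 0.00013 and 0.00027 in DESeq2, 0.00051 with RLE factors, 0.047 with library size alone, 0.0053 without a filter and 0.015 with at least 10 counts in every mouse. Dhcr7 gave 0.0039 in limma-voom and 0.014 with library size alone. Stard4 gave 0.0049 and 0.0032 in DESeq2, 0.023 in limma-voom, 0.0011 with RLE factors, 0.041 with library size alone, 0.0092 without a filter and 0.0090 with at least 10 counts. With one mouse left out, log2 fold changes ran from -0.18 to 0.079 for Lss, -0.12 to 0.036 for Cyp51, -0.021 to 0.55 for Idi1, -0.29 to -0.037 for Hmgcs1, -0.37 to -0.10 for Sqle, -0.13 to 0.11 for Fdft1, -0.18 to 0.055 for Dhcr7, -0.059 to 0.073 for Stard4, -0.17 to 0.0085 for Abca1, 0.24 to 0.47 for Srebf2 and 0.41 to 0.70 for Insig1. Idi1 could not be fitted in the reads of the second table or with at least 10 counts in every mouse. No paired analysis was possible because the groups share no mouse numbers.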
